A study of Mus musculus with 16 samples.

Results

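The Hippo pathway and TEAD factor genes described here were 10 genes, chosen by symbol and matched by Ensembl identifier in the count and TPM tables, out of 54393 genes in the count table and 13234 that passed the filter on low counts. They are the coactivators *Yap1* and *Wwtr1* (which encodes TAZ), the DNA-binding factors *Tead1*, *Tead2*, *Tead3* and *Tead4*, the kinases *Lats1* and *Lats2*, the junctional scaffold *Amotl2*, and *Ankrd1*, a widely used target gene of the pathway. All 10 passed the filter, with between 229 and 7994 estimated counts per library. The study measured polyadenylated RNA of mIMCD3 cells, a mouse line established from the kidney medulla of a mouse with an SV40 transgene and labelled as wild type. All 16 libraries came from cells grown for 10 days on permeable filters in a medium with serum. The 4 groups of 4 libraries were given 2 µg/mL of the antibiotic doxycycline (DOX) or its vehicle DMSO, for 3 or 6 days. The line has no tetracycline-controlled transgene named in its labels, and nothing in them says whether replicates were started separately, so that p-values measure the spread between these libraries.

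The Hippo pathway is a kinase cascade in which MST kinases activate LATS kinases, and LATS kinases phosphorylate YAP and TAZ and keep them out of the nucleus. Unphosphorylated YAP and TAZ have no DNA-binding domain of their own and act through TEAD factors on target genes such as *Ankrd1*, *Ccn1* and *Ccn2*. In epithelia the cascade is regulated by cell contacts, polarity proteins and tension, and much of that regulation is on protein phosphorylation and location, which RNA levels do not show.

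TEAD factors recognise the MCAT element, whose core reads GGAATG on one strand and CATTCC on the other. Promoters were those of the RefSeq table for GRCm38.p6, from 250 bases before to 50 bases after each start, and 8 of the 10 genes matched an entry, with 12 windows. *Tead1* and *Tead4* did not match. The core was present in 8 of the 12 windows, or 66.7%, and in 4817 of all 32851 promoters of the same length, or 14.7%. By gene it was present in 6 of 8, beside 4481 of all 27025 genes with a promoter, or 16.6%. It was not found in the windows of *Lats1* and *Tead2*. The 2 promoter windows of *Wwtr1* overlap and hold the same match, so that the windows are not independent. These matches are of letters only and binding was not measured. The sequences shown are those with a core before the start. Capitals mark the core, with 12 bases on either side, 5′ to 3′ on the strand of the gene.
Ankrd1, chr19:36120037-36120066, minus strand: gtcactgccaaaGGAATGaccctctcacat
Ankrd1, chr19:36119950-36119979, minus strand: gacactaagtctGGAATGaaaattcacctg
Yap1, chr9:8004720-8004749, minus strand: cgggagtctgcaGGAATGtagcgacgcgca
Wwtr1, chr3:57576029-57576058, minus strand: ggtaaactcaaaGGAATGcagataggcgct
Tead3, chr17:28350970-28350999, minus strand: gacgacgagcgaGGAATGgggtgcgcggga
Tead3, chr17:28350706-28350735, minus strand: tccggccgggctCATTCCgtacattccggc
Tead3, chr17:28350697-28350726, minus strand: gctcattccgtaCATTCCggccatccccct
Amotl2, chr9:102717727-102717756, plus strand: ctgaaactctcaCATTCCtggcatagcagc
The cores of *Ankrd1* began 210 and 123 bases before its start. The windows of *Yap1* and *Wwtr1* and the first of *Tead3* lay outside the genes as GENCODE M21 draws them, and the other windows overlapped an annotated exon of their gene. The remaining 2 matches, in *Lats2* and *Tead3*, began 5 and 3 bases after a start.

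The libraries held between 16933343 and 23960860 estimated counts. Epithelial markers were abundant, with a summed level of 1570 to 1820 TPM in DOX and 2125 to 2586 TPM in DMSO for 6 genes. Of the 6, 2 passed as lower in DOX at 3 days and 3 at 6 days (*Krt8* at both times). Of all tested genes 7.22% and 11.6% passed as lower. On log2(TPM + 1) the median change of all tested genes was itself -0.15 at 3 days and -0.05 at 6 days. In contrast, none of the 4 inner medullary collecting duct markers passed the filter. *Aqp2*, *Avpr2* and *Slc14a2* were below 1 TPM in every library, and *Aqp3* stood between 0.335 and 1.956 TPM. Of 12 markers of other kidney cell types, 6 passed the filter, and the list summed to 26.3 to 40.3 TPM in DMSO and 12.9 to 16.2 in DOX at 3 days, and to 29.1 to 47.9 and 16.3 to 25.2 at 6 days. The highest of them in every library was *Cd68*, a lysosomal protein of macrophages and other cells, at 7.76 to 24.4 TPM, which was lower in DOX at both times (log2 fold change -0.96 and -0.90, edgeR adjusted p = 1.39e-06 and 9.47e-07), while the leukocyte marker *Ptprc* stayed below 0.4 TPM. *Slc34a1*, a phosphate transporter of the proximal tubule, was above 7 TPM in 6 libraries (DMSO at 3 days replicate 1, DMSO at 6 days replicates 2, 3 and 4, and DOX at 6 days replicates 1 and 2) and between 1.57 and 5.55 TPM in the other 10. The part of these markers in the results was not tested. Calls that were lost without the 6 libraries are given with both values. The first DOX replicate of 3 days also stood apart, as in TPM it was the highest of its group for every member but *Tead2*. For *Wwtr1*, *Lats1* and *Amotl2* it was above every DMSO library of 3 days (45.1, 22.25 and 70.2 TPM). For *Yap1*, *Tead1*, *Tead3*, *Tead4*, *Lats2* and *Ankrd1* it was nearer to DMSO in TPM than the other replicates of its group. In counts scaled to the library size (CPM), the scale of the tests, this did not hold for *Ankrd1*. There the first DOX replicate had 265 CPM in a group from 264 to 281, beside 309 to 319 in DMSO. The reason was not tested.

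In DMSO-treated cells all 10 genes were expressed, and *Ankrd1* was far above the others. Over the 8 DMSO libraries it averaged 224 ± 27.3 TPM (SD, n = 8), with *Tead2* next at 63.0 ± 7.66 and *Amotl2* at 55.7 ± 4.71. *Wwtr1* followed at 38.6 ± 2.46, *Tead1* at 30.3 ± 3.89 and *Yap1* at 29.2 ± 3.18. The kinase *Lats1* stood at 18.3 ± 1.74 TPM, *Tead3* at 12.1 ± 1.2, *Lats2* at 8.88 ± 1.13 and *Tead4* at 8.27 ± 0.775. *Tead2* exceeded *Amotl2* in each of the 8 libraries although their ranges overlapped, and the same held for *Wwtr1* against *Tead1*. *Tead1* and *Yap1* could not be ordered, since *Tead1* was the higher in 4 of 8 libraries, nor could *Lats2* and *Tead4* be separated by range, with *Lats2* the higher in 6. TPM divides by transcript length, so that these levels can be compared between genes. *Lats2* shares its strand with the protein-coding gene model Gm49361 and *Tead2* overlaps *Cd37* on the opposite strand, and as the strand setting of the counting is not given in the sources used here, their levels are the less certain.

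**Figure D1:**
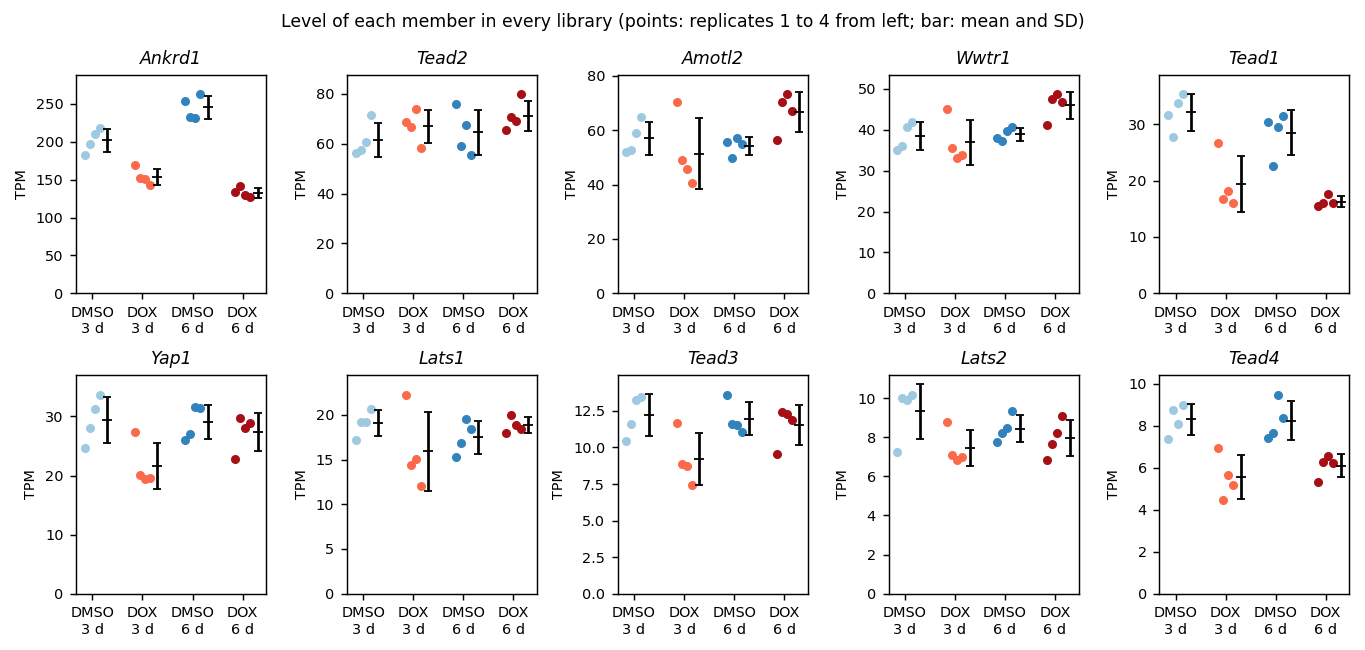
TPM of each of the 10 genes (y axis, from 0) in the 4 groups (x axis), in order of their mean in DMSO. Points are libraries, replicates 1 to 4 from left to right, and bars give the mean and SD. *Ankrd1* and *Tead1* in DOX lie below every DMSO library of the same time, and the first DOX replicate of 3 days is the highest of its group for every gene but *Tead2*.

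The comparison at 3 days asked whether DOX changed these transcripts within 3 days. Of the 10 genes, *Tead1* alone passed edgeR's glmTreat, which tests for a change beyond 1.2-fold, at an adjusted p of 0.05, and it was lower in DOX. In the same comparison 12.5% of all tested genes passed, 7.22% as lower and 5.3% as higher, so that 1 of 10 is near the background. The median log2 fold change of the 10 was -0.19, beside 0.00 for all tested genes. At an unadjusted p under 0.05, 2 of the 10 passed, *Tead1* and *Tead4*. In CPM (counts scaled to the library size after TMM) DOX and DMSO libraries did not overlap for 5 of the 10, beside 38.6% of all tested genes. In bulk RNA, fewer cells of a type and less RNA per cell cannot be told apart.

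*Tead1* encodes a TEAD factor that is widely expressed across tissues. Its gene lies at chr7:112679318-112906807 of GRCm38, on the plus strand. It stood at 31.6, 27.8, 33.7 and 35.3 TPM in the DMSO libraries of 3 days. In DOX it stood at 26.7, 16.7, 18.2 and 16 TPM. Every DOX library was below every DMSO library, and the first DOX replicate was closest to DMSO. The log2 fold change in CPM was -0.47 ± 0.08 (SE), with an adjusted p of 0.0181 by edgeR. This call rested on few libraries and on the model, since it did not pass without DOX replicate 2 (-0.44, adjusted p = 0.0629) or DOX replicate 4 (-0.42, adjusted p = 0.0724), with DESeq2 (-0.47, adjusted p = 0.158) or when trends with transcript length and GC content were removed as an offset (-0.38, adjusted p = 0.0897). Without the first DOX replicate of 3 days the value was -0.57 (edgeR adjusted p = 0.000354).

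*Tead4*, the family member best known for its part in the trophectoderm, stood at 7.36, 8.76, 8.09 and 8.996 TPM in DMSO. In DOX at 3 days it stood at 6.93, 4.46, 5.68 and 5.196 TPM. The groups did not overlap, but the log2 fold change of -0.43 ± 0.08 just missed the threshold (edgeR adjusted p = 0.0512), and passed it without the first DOX replicate (-0.50, adjusted p = 0.0102). Over single libraries left out, the edgeR adjusted p reached 0.191. *Tead4* did not pass with DESeq2 (-0.43, adjusted p = 0.501) or with the length and GC offset (-0.39, edgeR adjusted p = 0.145). *Tead2* and *Tead3* differed by 0.20 ± 0.06 and -0.24 ± 0.09 on the log2 scale, neither of them past the threshold. The coactivator *Yap1* differed by -0.25 ± 0.06, with DOX libraries of 27.4, 20.1, 19.4 and 19.6 TPM against 24.7 to 33.7 in DMSO, and did not pass. *Wwtr1* (0.12 ± 0.05), *Lats1* (-0.12 ± 0.09), *Lats2* (-0.17 ± 0.07) and *Amotl2* (0.01 ± 0.08) did not pass either. On the TPM scale *Wwtr1* and *Amotl2* had the opposite sign (-0.06 and -0.17), and on that scale the median of all tested genes was itself at -0.15.

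**Figure D2:**
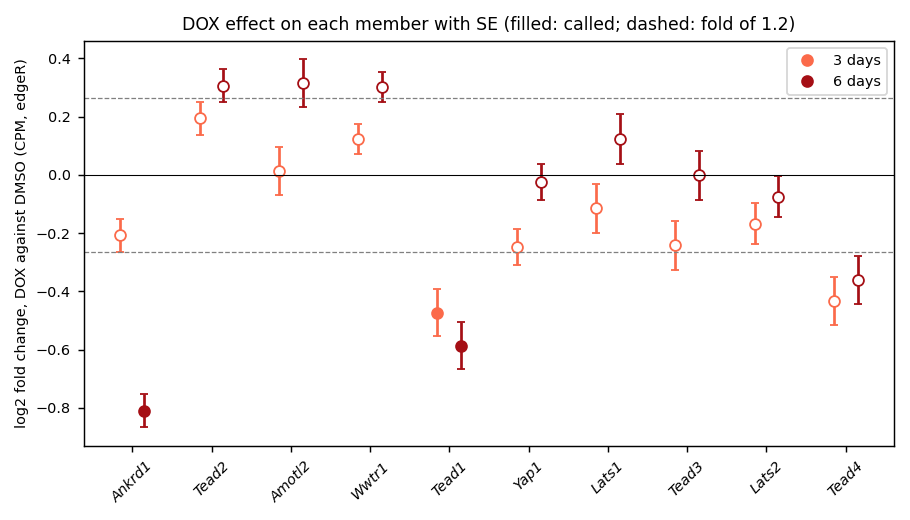
Log2 fold change of DOX against DMSO (y axis, CPM scale, edgeR) for each gene (x axis) at 3 days (light) and 6 days (dark). Bars are the SE, filled points passed the test and dashed lines mark a fold of 1.2. *Ankrd1* lies at -0.21 at 3 days and at -0.81 at 6 days, and *Tead1* is filled at both times.

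The comparison at 6 days asked the same of a longer exposure. Here *Ankrd1* and *Tead1* passed, both lower in DOX, or 2 of 10 genes. Of all tested genes 21.6% passed at 6 days, 11.6% as lower and 10.0% as higher, so that the share was again near the background. The 10 had a median log2 fold change of -0.01, beside 0.00 for all tested genes. DOX and DMSO libraries did not overlap in CPM for 6 of the 10 (43.0% of all tested genes), of which 3 were higher in DOX (*Wwtr1*, *Tead2*, *Amotl2*) and 3 lower (*Tead1*, *Tead4*, *Ankrd1*).

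*Ankrd1* encodes a stress-responsive ankyrin repeat protein of muscle and other tissues, and lies at chr19:36111961-36120099 of GRCm38 on the minus strand. In DMSO at 6 days it stood at 254, 233, 231 and 262 TPM. In DOX it stood at 133, 142, 129 and 127 TPM. The highest DOX library was thus well below the lowest DMSO library. The log2 fold change was -0.81 ± 0.06, a fold of 0.570, with an edgeR adjusted p of 1.61e-08. It passed under each of the alternatives tried, with values from -0.96 to -0.77.

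At 3 days *Ankrd1* stood at 182, 197, 210 and 218 TPM in DMSO. The DOX libraries stood at 169, 152, 151 and 144 TPM. They did not overlap either, but the log2 fold change of -0.21 ± 0.06 lay inside the 1.2-fold limit and did not pass. The difference between the 2 times was itself tested with edgeR's glmQLFTest, without a fold limit, and *Ankrd1* was the 1 gene of the 10 that passed (-0.60 ± 0.08, adjusted p = 0.00017), where 17.0% of all tested genes passed. *Yap1* did not (0.22 ± 0.09, adjusted p = 0.0846), but did without the first DOX replicate of 3 days (0.27, adjusted p = 0.0191) or of 6 days (0.27, adjusted p = 0.0319). *Yap1* was not alone in this. Without that replicate of 3 days *Amotl2* (0.41), *Lats1* (0.34), *Tead3* (0.32) and *Wwtr1* (0.22) passed too, and 3788 of all tested genes did in place of 2252. *Amotl2* also passed without that of 6 days (0.34). Over single libraries left out, the adjusted p of *Yap1* by glmQLFTest reached 0.174. Without the 6 libraries with *Slc34a1* above 7 TPM, which leaves 1 DMSO library at 6 days, *Yap1* was at 0.40. Both treatments contributed to the difference of *Ankrd1*, as the log2 difference of *Ankrd1* between 6 and 3 days was 0.23 ± 0.06 in DMSO and -0.38 ± 0.06 in DOX, and neither of these passed on its own.

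*Tead1* at 6 days stood at 30.5, 22.6, 29.5 and 31.4 TPM in DMSO. In DOX it stood at 15.4, 15.98, 17.7 and 15.94 TPM, again with no overlap and with a narrow spread in DOX. The log2 fold change was -0.59 ± 0.08 (edgeR adjusted p = 0.000564). It passed under every alternative but the following, chosen after seeing the data. Without the 6 libraries with *Slc34a1* above 7 TPM, *Tead1* was at -0.43 and did not pass, whereas *Ankrd1* stood at -0.96 in the same libraries. The first DMSO replicate is then the 1 DMSO library left at 6 days, and it is assumed to vary like the other groups. In CPM that library was the lowest of its group for *Tead1* (138, group 138 to 172) and the highest for *Ankrd1* (382, group 338 to 382). How far that 1 library set these values was not tested. The change of *Tead1* did not differ detectably between the times (-0.11 ± 0.11, edgeR adjusted p = 0.525).

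The remaining members did not pass at 6 days. *Tead4* differed by -0.36 ± 0.08 on the log2 scale, with 7.42 to 9.48 TPM in DMSO and 5.31 to 6.56 in DOX. *Wwtr1* was at 37.1 to 40.7 TPM in DMSO and 41.2 to 48.6 in DOX, a log2 difference of 0.30 ± 0.05 in CPM (edgeR adjusted p = 0.266). These are the 2 genes that the length and GC offset brought past the threshold (-0.45 and 0.43, adjusted p = 0.0251 and 0.00184). *Amotl2*, which holds YAP at cell junctions, differed by 0.32 ± 0.08 and *Tead2* by 0.31 ± 0.06, both just beyond the 1.2-fold limit. *Yap1* (-0.02 ± 0.06), *Tead3* (0.00 ± 0.08), *Lats1* (0.12 ± 0.09) and *Lats2* (-0.08 ± 0.07) were close to 0. Without the 6 libraries with *Slc34a1* above 7 TPM, *Lats1* stood at 0.33, *Tead4* at -0.20, *Tead2* at 0.20 and *Tead3* at -0.17, and they did not pass. In CPM the 1 DMSO library then left at 6 days was the lowest of its group for *Lats1* and *Tead4*. It was the highest for *Tead2* and *Tead3*.

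Between DMSO at 6 and at 3 days none of the 10 genes passed, and 0.0% of all tested genes did by edgeR's glmTreat, with 172 genes at an unadjusted p under 0.05, none of them among the 10, and 0 genes by DESeq2. Within DOX, 3.94% of all tested genes passed between 6 and 3 days and again none of the 10 by glmTreat or DESeq2, of which *Ankrd1* (-0.38 ± 0.06) and *Tead1* (-0.37 ± 0.08) had an unadjusted p under 0.05.

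The make-up of the TEAD family differed between DOX and DMSO libraries. *Tead2* held 53.9% ± 1.27 (SD, n = 4) of the summed TPM of the 4 Tead genes in DMSO at 3 days and 66.4% ± 4.20 in DOX. At 6 days it held 56.9% ± 3.29 in DMSO and 67.7% ± 2.00 in DOX. *Tead1* held 28.1% ± 1.64 and 19.0% ± 2.96 at 3 days, and 25.2% ± 3.09 and 15.5% ± 1.21 at 6 days. Neither share overlapped between treatments at either time, and the lowest *Tead1* share in DMSO at 3 days was 26.3% against a highest of 23.4% in DOX. The TPM of *Tead2* itself overlapped at both times, at 55.4 to 75.8 in DMSO and 65.3 to 79.8 in DOX at 6 days. A share also rises where another gene of the sum falls. The summed TPM of the 4 genes did overlap, at 105 to 129 in DMSO and 86.8 to 114 in DOX at 3 days, and 101 to 127 and 95.6 to 114 at 6 days. *Wwtr1* held 56.7% ± 1.38 of the sum of *Yap1* and *Wwtr1* in DMSO and 63.1% ± 0.696 in DOX at 3 days, and 57.3% ± 1.61 and 62.8% ± 1.38 at 6 days, without overlap. *Lats2* held between 27.6% and 36.8% of the sum of the 2 Lats genes in all groups, and its groups overlapped. Shares are given as a description with no test.

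**Figure D3:**
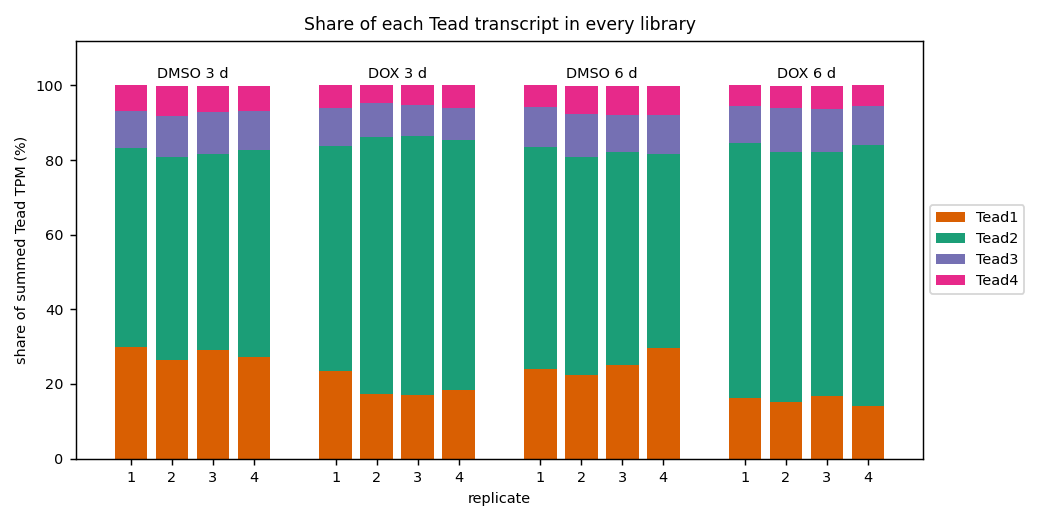
Share of *Tead1*, *Tead2*, *Tead3* and *Tead4* in their summed TPM (y axis, percent) in each library (x axis, replicates 1 to 4 of the 4 groups). The *Tead1* segment spans 22.3% to 29.9% in DMSO and 14.0% to 23.4% in DOX.

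TPM changes also depend on which transcripts were counted, since salmon divides by the effective length of each. Estimated counts per TPM, centred on the median of 11348 genes in each library, track that length. DOX and DMSO libraries overlapped in this measure for all 10 genes at both times, where 4.18% of genes at 3 days and 4.04% at 6 days did not overlap. The mean log2 difference of *Tead1* was 0.09 at 3 days and 0.15 at 6 days, that of *Tead2* -0.11 and 0.095, and that of *Ankrd1* 0.00 and 0.01. A difference as large as that of *Tead1* at 6 days was seen in 6.29% of genes. Its DMSO libraries of that time had an SD of 0.16, so overlap does not exclude a shift for *Tead1*.

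Across the 16 libraries the genes whose log2 CPM followed *Tead1* most closely were *Fat1* (Pearson r = 0.985), *Vps13d* (0.980) and *Polr2a* (0.980). *Fat1* encodes a large atypical cadherin that is itself a regulator of the pathway, and *Polr2a* the largest subunit of RNA polymerase II. For *Ankrd1* they were *Id3*, *Ilk* and *Tnfaip8*, each at r = 0.974. *Id3* encodes an inhibitor of basic helix-loop-helix factors and *Ilk* the integrin-linked kinase of focal adhesions. These correlations span 4 groups that differ in treatment, with shared libraries, and are given as a description. Among the members, *Tead1* and *Tead4* had an r of 0.86 and *Wwtr1* and *Ankrd1* one of -0.89.

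Beyond the 10 members, 62 other genes of the pathway were listed, of which 55 were tested. At 3 days 6 of them passed, 1 as higher and 5 as lower in DOX, or 10.9% beside 12.5% of all tested genes. At 6 days 10 passed, 3 as higher and 7 as lower, or 18.2% beside 21.6%. The median log2 fold change of the 55 was -0.19 at 3 days and -0.05 at 6 days. The number at 3 days was 2 with the length and GC offset and 11 without the first DOX replicate, and the number at 6 days was 5 without the 6 libraries with *Slc34a1* above 7 TPM.

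Upstream of LATS, the kinase core (MST, MAP4K and TAOK kinases with their partners) had 18 genes, all tested. None passed edgeR's glmTreat at 3 days, with 2 at an unadjusted p under 0.05 and 0 by DESeq2, and at 6 days *Nf2* alone passed, as higher in DOX. Of all tested genes 12.5% passed at 3 days and 21.6% at 6 days. *Nf2* encodes merlin, which recruits LATS to the membrane. It stood at 21.7, 17.98, 21.6 and 21.9 TPM in DMSO at 6 days and at 24.8, 30.4, 32.0 and 31.3 TPM in DOX, with no overlap. The log2 fold change was 0.67 ± 0.06 (edgeR adjusted p = 2.31e-06), beside 0.20 ± 0.06 at 3 days, and the difference between the times passed as well (0.47 ± 0.09, adjusted p = 0.00169). On the TPM scale with limma the values at 6 days were 0.49 and 0.51 and did not pass.

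Of 14 polarity and junction regulators 12 were tested, and 4 passed at 3 days and 3 at 6 days, all lower in DOX. Of all tested genes 7.22% and 11.6% passed as lower at the 2 times, and 12.5% and 21.6% passed in either direction, so that 3 of 12 at 6 days is near the latter share. *Amot*, the paralogue of *Amotl2* that binds YAP, stood at 9.47, 8.83, 14.0 and 13.9 TPM in DMSO at 3 days and at 6.81, 4.83, 4.49 and 4.59 TPM in DOX. Its log2 fold change was -0.88 ± 0.11 at 3 days and -0.68 ± 0.11 at 6 days (edgeR adjusted p = 5.36e-05 and 0.000947). *Fat1* differed by -0.56 ± 0.08 and -0.61 ± 0.08 (adjusted p = 0.00291 and 0.000384), and *Mpp5*, the junction scaffold PALS1, by -0.44 ± 0.07 and -0.42 ± 0.07 (adjusted p = 0.0275 and 0.0316). *Ptpn14*, a phosphatase that binds YAP, passed at 3 days (-0.56 ± 0.09, edgeR adjusted p = 0.00572) and not at 6 days (-0.20 ± 0.09). Of these, *Amot* passed at 3 days in all 31 settings, whereas *Fat1*, *Mpp5* and *Ptpn14* did not pass at 3 days with the length and GC offset (-0.30, -0.35 and -0.35). The *Mpp5* call at 6 days held in 18 of 31 settings, and was lost with the replicate number as a block (-0.42, adjusted p = 0.0501) and without DMSO replicate 3 or 4 or DOX replicate 3 or 4 of that time (-0.41 to -0.35). At 3 days it was lost without DMSO replicate 1 or 3 or DOX replicate 3 or 4 (-0.43 to -0.41). Without the 6 libraries with *Slc34a1* above 7 TPM the 6-day calls of *Amot* (-0.57), *Fat1* (-0.36) and *Mpp5* (-0.23) were lost. The first DMSO replicate was then the 1 DMSO library of 6 days. In CPM it was the lowest of its group for *Fat1* (144, group 144 to 193) and *Mpp5* (77.7, group 77.7 to 106), though not for *Amot* (38.7, group 37.1 to 45.6).

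None of the 8 kinase inhibitors (LIM proteins and members of the STRIPAK phosphatase complex) passed edgeR's glmTreat at either time, with 0 at an unadjusted p under 0.05 and 0 by DESeq2. Of all tested genes 12.5% passed at 3 days and 21.6% at 6 days, and in a list of 8 such shares amount to few calls. Of the 4 VGLL cofactors, which compete with YAP for TEAD, 2 were tested, and *Vgll3* was higher in DOX at 6 days (1.145 ± 0.23, edgeR adjusted p = 0.00146). Its level was low, at 0.403 ± 0.154 TPM in DMSO and 0.705 ± 0.0769 in DOX (SD, n = 4), and it did not pass without the 6 libraries with *Slc34a1* above 7 TPM (1.02, edgeR adjusted p = 0.181). Nor did it pass with limma on log2(TPM + 0.1) (0.73, adjusted p = 0.193) or on log2(TPM + 1) (0.29, adjusted p = 1.0).

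**Figure D4:**
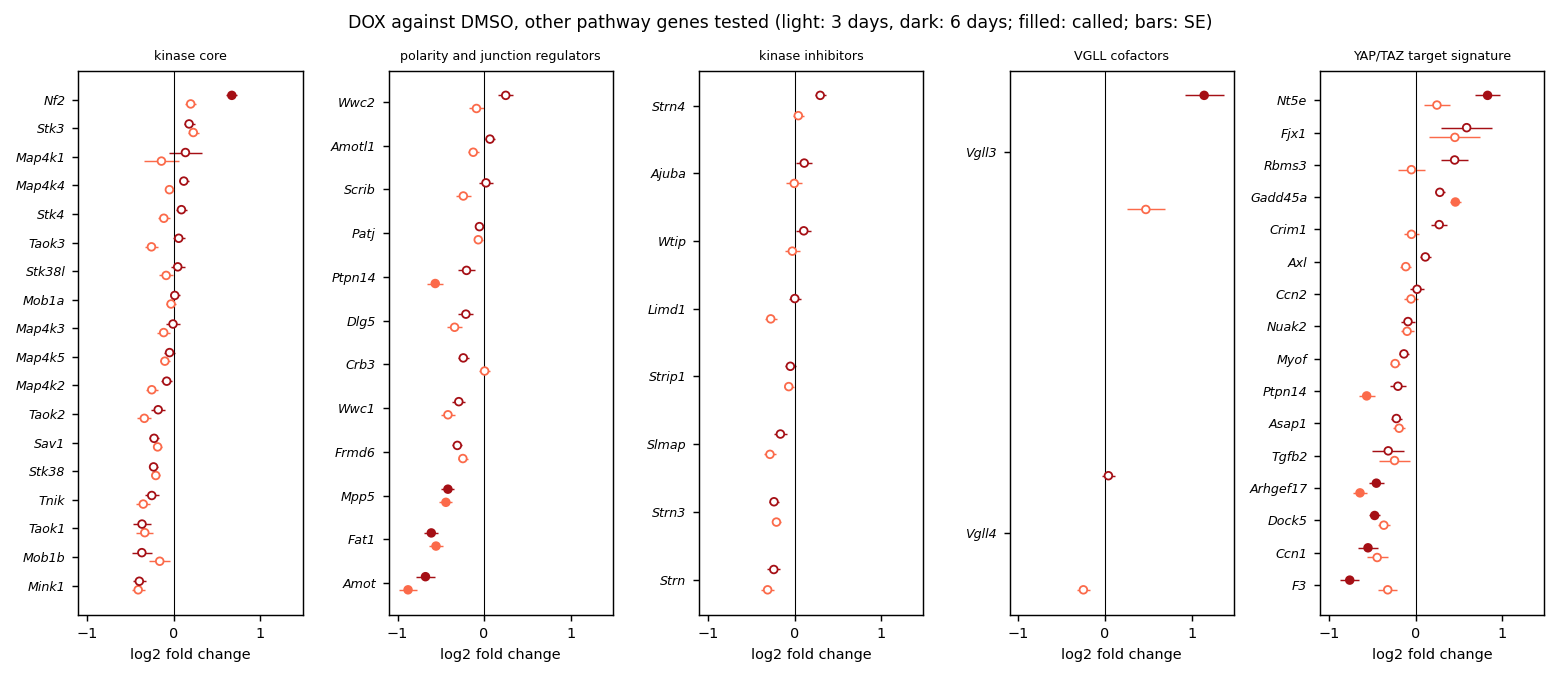
Log2 fold change of DOX against DMSO (x axis, CPM scale) of the other pathway genes tested (y axis), in 5 panels by role, at 3 days (light) and 6 days (dark). Bars are the SE and filled points passed the test. *Nf2* at 0.67 and *Amot* at -0.88 stand out in their panels, and no kinase inhibitor is filled.

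Downstream, the YAP/TAZ target signature had 19 genes, of which 16 were tested. At 3 days 3 passed, 1 higher and 2 lower, and at 6 days 5 passed, 1 higher and 4 lower. These are 18.8% and 31.2% of the 16, beside 12.5% and 21.6% of all tested genes. The median log2 fold change was -0.15 and -0.11, beside 0.00 for all tested genes at both times. *F3*, which encodes tissue factor, fell at 6 days by 0.76 ± 0.11 on the log2 scale (edgeR adjusted p = 0.000268), from 246 ± 46.0 to 139 ± 6.95 TPM (SD, n = 4), and passed in all 31 settings. Without the 6 libraries with *Slc34a1* above 7 TPM it was at -1.19, against the first DMSO replicate of 6 days alone, the highest for *F3* (315 TPM). *Dock5*, a Rac exchange factor, was also lower (-0.47 ± 0.07, edgeR adjusted p = 0.00377), in 28 of 31 settings. It was not past the threshold with limma on log2(TPM + 1) (-0.46) or log2(TPM + 0.1) (-0.55). Nor was it without the 6 libraries with *Slc34a1* above 7 TPM (-0.25), where the 1 DMSO library left was the lowest of its group in CPM (35.3). *Ptpn14*, described above, is also in this signature and was the other gene lower at 3 days besides *Arhgef17*.

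*Ccn1* and *Ccn2* encode the matricellular targets most used as readouts of YAP and TAZ. *Ccn1* stood at 349, 230, 216 and 238 TPM in DMSO at 6 days and at 162, 167, 185 and 164 TPM in DOX. Its log2 fold change was -0.55 ± 0.12 (edgeR adjusted p = 0.0198), and without the first DMSO replicate of 6 days, its highest library, it was -0.36 and did not pass (adjusted p = 0.108). Nor did it pass without DOX replicate 4 of 6 days (-0.52, edgeR adjusted p = 0.051) or with DESeq2 (adjusted p = 0.081). Without the 6 libraries *Ccn1* was at -0.99, but that same first DMSO replicate was then the only DMSO library of 6 days. *Ccn2* stood at 207, 169, 186 and 201 TPM in DMSO and 155, 197, 199 and 191 TPM in DOX, which overlapped, with a log2 fold change of 0.02 ± 0.08 at 6 days and -0.05 ± 0.08 at 3 days. The difference between *Ccn1* and *Ccn2* was not tested. *Nt5e*, the ectonucleotidase CD73, was higher at 6 days (0.83 ± 0.14, edgeR adjusted p = 0.000713) at a level of 1.89 ± 0.212 TPM in DOX. *Gadd45a*, a stress-response gene, passed as higher at 3 days (0.46 ± 0.06, edgeR adjusted p = 0.0046) and not at 6 days (0.28 ± 0.06), and at 3 days it did not pass with the length and GC offset (0.36) or on log2(TPM + 1) with limma (0.25). *Arhgef17*, named after its values were seen, was lower at both times (-0.64 ± 0.08 and -0.45 ± 0.08), but its 6-day call held in 25 of 31 settings. That call was lost without DMSO replicate 4 or DOX replicate 1 of 6 days (-0.43 and -0.38) and with DESeq2 (-0.46). It was also lost with limma on log2(TPM + 1) (-0.47) and log2(TPM + 0.1) (-0.51). The same held without the 6 libraries (-0.29), where the 1 DMSO library left was the lowest of its group in CPM (90.3).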

How the data were processed

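The authors aligned read pairs with STAR 2.6.0c per the labels and quantified transcripts with Salmon, listed as 0.14.10 in the submitters' processing notes with the build GRCm38.p6. They deposited estimated counts per gene, without normalization, and TPM, which divides by transcript length and by library. The strand setting is not given in the sources used here. All count table identifiers were in GENCODE M21, which gave positions. Groups came from the sample labels, and all 16 libraries were used.

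Counts were rounded, and a gene was kept if its CPM reached 1 in 4 or more libraries (13234 genes). With edgeR 4.0.16 in R 4.3.3, a robust quasi-likelihood model with TMM and 1 mean for each of 4 groups was fitted. Contrasts used glmTreat with a fold of 1.2, the difference between times glmQLFTest, two-sided, with Benjamini-Hochberg adjustment over all tested genes and a limit of 0.05. The SE is the log2 fold change divided by the square root of F. Log2 CPM for correlations used a prior count of 2. Depth was 16933343 to 23960860 counts, and 3 counts correspond to 0.125 to 0.177 CPM.

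Named were the 10 members, every gene of another list called at either time where up to 6 were called, otherwise the 3 largest in each direction at 6 days, *Ccn1* and *Ccn2*, and the 3 genes most correlated with each called member. *Arhgef17* and *Taok3* were added after their values were seen. The members and lists were chosen with earlier results of these data known. The alternatives, with DESeq2 1.42.0 and limma 3.58.1 on log2(TPM + 1) and log2(TPM + 0.1) among them, are given in the closing section. The model was tested on simulated counts.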

Additional observations from a re-analysis of the deposited data

Results flagged for a closer look

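The effect of DOX differed between 6 and 3 days, by the test of the difference itself, for *Ankrd1* (-0.60 on the log2 scale, edgeR adjusted p = 0.00017), *Nf2* (0.47, adjusted p = 0.00169) and *Taok3*, a kinase upstream of LATS (0.32, adjusted p = 0.0338). *Ankrd1* passed under each of the alternatives tried and *Nf2* in 28 of 30 settings, whereas *Taok3* passed in 17 of 30.

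A library stood far from the other 3 of its group in 9 of 96 groups of TPM values examined, over 24 genes. By chance about 1 in 20 groups would. Among the members these were *Yap1* in the first DOX replicate of 3 days (27.4 TPM, highest of its group), *Lats2* in the same library (8.79 TPM, highest) and *Lats2* in the first DMSO replicate of 3 days (7.23 TPM, lowest). *Amot* was also highest in the first DOX replicate of 3 days (6.81 TPM). The first DMSO replicate of 6 days was highest for *F3* (315 TPM) and *Ccn1* (349 TPM). *Nf2* was lowest in DMSO replicate 2 of 6 days (17.98 TPM), *Nt5e* highest in DMSO replicate 3 of 6 days (1.49 TPM) and *Ccn2* lowest in DOX replicate 1 of 6 days (155 TPM).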

How the results depend on the processing

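Of the 10 members, 1 passed at 3 days, 2 at 6 days and 1 for the difference between times. At 3 days the number was 2 with library totals alone, with the limit of 1 CPM applied to all 16 libraries and without robust estimation, 0 with DESeq2 and with the length and GC correction, and 6 with no fold threshold. At 6 days it was 4 with the length and GC correction, 6 with no fold threshold and 1 without the 6 libraries with *Slc34a1* above 7 TPM, an alternative chosen after seeing the data. For the difference between times it was 2 with no filter, with the length and GC correction and without those 6 libraries. Between 6 and 3 days of DOX it was 4 with no fold threshold and 1 without those libraries, in place of 0. Leaving out 1 library at a time gave 0 to 2 members at 3 days, 2 at 6 days, 0 to 1 between the times of DOX, and 1 to 6 for the difference, with 6 without the first DOX replicate of 3 days and 3 without the first of 6 days.

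Of the other pathway genes 6 passed at 3 days and 10 at 6 days. With limma these were 2 and 1 on log2(TPM + 1), and 3 and 4 on log2(TPM + 0.1). With no fold threshold they were 30 and 29, with the length and GC correction 2 at 3 days, and without the 6 libraries 5 at 6 days. Leaving out 1 library gave 5 to 11 and 9 to 11. Of all genes 1658 and 2856 passed, with limma 701 and 1307 on log2(TPM + 1) and 909 and 1527 on log2(TPM + 0.1), with no fold threshold 5982 and 6702, with DESeq2 1019 at 3 days, and without the 6 libraries 1480 at 6 days. Leaving out 1 library gave 1366 to 2297 and 2537 to 3057. Calls by TPM at 3 days were 85 higher and 616 lower, beside 702 and 956 by counts.

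Signs turned for members that had not passed. At 3 days *Wwtr1* was -0.063 on log2(TPM + 1) and -0.065 on log2(TPM + 0.1), *Lats1* 0.069 with the length and GC correction and 0.065 with the block as well, and *Amotl2* -0.043 with library totals, -0.173 and -0.176 on the TPM scales, and between -0.091 and 0.077 over single libraries left out. At 6 days *Yap1* was 0.014 with no filter and 0.136 without the 6 libraries, and -0.067 to 0.019 over single libraries left out. *Tead3* was 0.035 with no filter, 0.0017 with the replicate block and -0.044 to 0.070 over single libraries, and *Lats2* 0.113 without the 6 libraries. For the difference between times *Tead4* was -0.058 and -0.054 with the length and GC correction without and with the block, and without the 6 libraries *Tead1* was 0.021 and *Tead2* -0.023. The causes were not tested.

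The deviations of equally numbered libraries correlated at -0.433 to 0.34. Unequally numbered libraries were not compared, so these values cannot tell whether replicate numbers mark pairs. With the replicate number as a block 1 member passed at 3 days, 2 at 6 days and 1 for the difference, and 1570 and 2767 of all genes. Of the other pathway genes named, *Mpp5* at 6 days lost its call with the block (-0.42, adjusted p = 0.0501). With the length and GC correction and the block together the numbers were 0, 4 and 2 members, and 2 other pathway genes at 3 days. The number of 4 libraries per group limits what differences near 1.2-fold could be detected.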
